A study of Mus musculus with 2 samples.

Results

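The 7 genes described here encode the enzymes that break down or rebuild NAD around and inside the cell, the enzymes that turn extracellular ATP into adenosine, and the receptors that adenosine binds. They are Cd38, Bst1, Nt5e, Entpd1, Nampt, Adora2a and Adora2b, taken by symbol from the gene tables of a single-cell RNA sequencing study of mouse bone marrow, whose control table lists 25395 genes and whose T1D table lists 24831, with 22384 common to them. All 7 were in both. The genes were selected on levels already seen in these libraries, in which Cd38 was higher and Nt5e lower in neutrophils of the T1D library. Those values are a description of the libraries, and nothing was tested with them.

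The marrow was taken from the femurs and tibias of mice of strain C57/BL6. For the control library the mice received sodium citrate solution and had normal blood sugar, and for the T1D library they received streptozotocin, which destroys pancreatic beta cells, and had high blood sugar. Bone fragments of both were digested with collagenase and dispase, red blood cells were lysed, and cells were loaded on a microfluidic chip of the Singleron GEXSCOPE kit. There was 1 library in each group, and the sources used here give neither the age nor the sex nor the number of mice behind each. No difference below therefore has a replicate check, and condition, animal and preparation cannot be told apart.

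CD38 and its neighbour on the chromosome, BST1 (CD157), are surface enzymes that cleave NAD into nicotinamide and ADP-ribose or cyclic ADP-ribose, a messenger that releases calcium. CD39, the product of Entpd1, removes phosphates from extracellular ATP and ADP, and CD73, the product of Nt5e, converts the resulting AMP into adenosine, which acts through the receptors encoded by Adora2a and Adora2b, among others. NAMPT is the rate-limiting enzyme of NAD salvage from nicotinamide. In blood cells, CD38 and CD157 are long-used surface antigens, CD38 on B-lineage and activated cells and CD157 on myeloid cells and early B cells.

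The promoters of Cd38 and Nt5e are shown because these genes lay in opposite directions in the neutrophils of the libraries. Each is the 250 bases upstream of the gene's start on the + strand of GRCm38.p6, from RefSeq. Promoter entries matched 5 of the 7 genes. The Cd38 sequence is at chr5:43868559-43868808 and has a GC content of 48.8%. The Nt5e sequence is at chr9:88327359-88327608 and has a GC content of 72.0%.
Cd38: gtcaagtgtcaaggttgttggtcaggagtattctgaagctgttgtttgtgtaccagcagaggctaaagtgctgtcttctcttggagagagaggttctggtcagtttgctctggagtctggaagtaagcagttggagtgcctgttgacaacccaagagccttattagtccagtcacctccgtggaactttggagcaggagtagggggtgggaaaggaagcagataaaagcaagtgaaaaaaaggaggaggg
Nt5e: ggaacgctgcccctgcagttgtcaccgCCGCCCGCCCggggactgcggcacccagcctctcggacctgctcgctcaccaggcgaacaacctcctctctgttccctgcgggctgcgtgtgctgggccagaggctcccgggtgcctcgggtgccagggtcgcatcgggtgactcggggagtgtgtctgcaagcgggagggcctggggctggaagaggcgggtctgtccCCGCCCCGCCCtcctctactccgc
Capitals mark the matches to 3 motifs searched on both strands, a C/EBP-like motif (TTGCNNAA), the GC box (GGGCGG) and the TATA box (TATAAA). Cd38 held none of them. Nt5e held 4 GC boxes on the - strand, which begin at positions -223, -219, -24 and -19 from the gene's start and overlap in pairs, and no match to the others. Of 32851 mouse promoter windows of the same length, 9.6% held the C/EBP-like motif, 32.7% the GC box and 12.4% the TATA box. A match is a description of the letters and shows no binding.

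After cells with under 200 genes or over 20% mitochondrially encoded counts were removed, 12803 control and 15579 T1D cells remained, with median totals of 3633 and 2757 counts per cell. Of the kept barcodes, 249 occurred in both libraries. Levels are given in CPM, the counts of a gene scaled to a fixed sum of all counts of the class, with exact Poisson 95% intervals, and ratios carry exact conditional binomial 95% intervals. All intervals cover counting error only, and it is not stated in the sources used here whether the counts are collapsed molecules. Classes rest on marker genes and carry the sense of "like". Clusters were built without the 7 genes, yet the libraries parted strongly: cluster 8, led by Clec4d, Acod1, Ifitm1 and Il1f9, held 1097 of the 1335 control mature neutrophils, while clusters 0 and 5, led by Stfa2 and Asprv1 and by Steap4 and Il1b, held 2619 and 1691 of the 4349 T1D mature neutrophils. Ratios within single clusters with at least 100 cells in both libraries are therefore given beside the class values. A further cluster of neutrophils had markers of both stages and is called stage unclear, with 2098 control and 160 T1D cells. Pro- or pre-B cells (562 cells) and B-lineage cells of unclear stage (641 cells) were found in the control library only.

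Cd38 was higher in the T1D library in neutrophils, monocytes and their progenitors, and was not in mature B or T or NK cells. It was also higher in macrophage or dendritic cells, stem or multipotent progenitors and erythroid cells, as given below. In monocytes the level was 4.20 CPM in the control library (47 counts, 1871 cells) and 76.3 CPM in the T1D library (771 counts, 2268 cells). This is an 18.2-fold difference, with a counting interval of 13.5 to 24.9. In immature neutrophils, which still carry the granule protein transcripts Ngp, Ltf and Camp, it was 5.45 and 57.6 CPM, a 10.6-fold difference (8.03 to 14.2). In mature neutrophils it was 5.58 CPM (21 counts) and 54.7 CPM (563 counts), a 9.81-fold difference (6.36 to 16.0). The few control counts set the width of these intervals. Stage-unclear neutrophils had 14.4 and 69.9 CPM, and granulocyte-monocyte progenitors 2.86 and 15.6 CPM, a 5.45-fold difference (3.15 to 10.1).

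The B lineage carried Cd38 in both libraries. Mature B cells had 120 CPM in the control and 106 CPM in the T1D library, a ratio of T1D over control of 0.888 whose interval, 0.718 to 1.09, includes 1. The class value includes cluster 22, with 476 control and no T1D cells, at 167 CPM. In the shared mature B clusters the ratio was 1.40 (0.979 to 1.99) in cluster 19 and 0.942 (0.655 to 1.35) in cluster 23. T or NK cells had 37.2 and 27.8 CPM, with a ratio of 0.748 (0.505 to 1.11). Pro- or pre-B cells had 58.4 CPM and B-lineage cells of unclear stage 74.4 CPM in the control library. Macrophage or dendritic cells had 58.6 CPM in the control and 141 CPM in the T1D library, a 2.40-fold difference (1.63 to 3.54) in 219 and 112 cells. Plasmacytoid dendritic cells had 24.7 and 54.2 CPM. Plasma cells had 10.2 CPM in 71 control cells and 0 counts in 94 T1D cells. The latter allows, at 3 counts or 3 cells, up to 7.39 CPM or a share of cells with a count of up to 3.19%.

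The order of the classes by Cd38 therefore differed between the libraries. In the control library mature B cells stood highest among the classes with at least 100 cells in both, followed by macrophage or dendritic cells, T or NK cells and stage-unclear neutrophils, and monocytes, immature and mature neutrophils, stem or multipotent progenitors, granulocyte-monocyte progenitors, erythroid and basophil or mast cells all lay between 2.85 and 5.73 CPM with overlapping intervals. In the T1D library macrophage or dendritic and mature B cells, whose intervals overlap, were followed by monocytes. Of all control Cd38 counts, 28.7% lay in mature B cells, 16.6% in B-lineage cells of unclear stage, 12.04% in pro- or pre-B cells and 14.3% in neutrophils, which were 45.2% of the cells. Of T1D counts, 53.4% lay in neutrophils (58.9% of cells), 28.4% in monocytes (14.6% of cells) and 4.604% in mature B cells. Over all kept cells, whose mix of classes differs between the libraries, Cd38 had 21.3 and 52.5 CPM, a 2.47-fold difference (2.30 to 2.64).

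**Figure D1:**
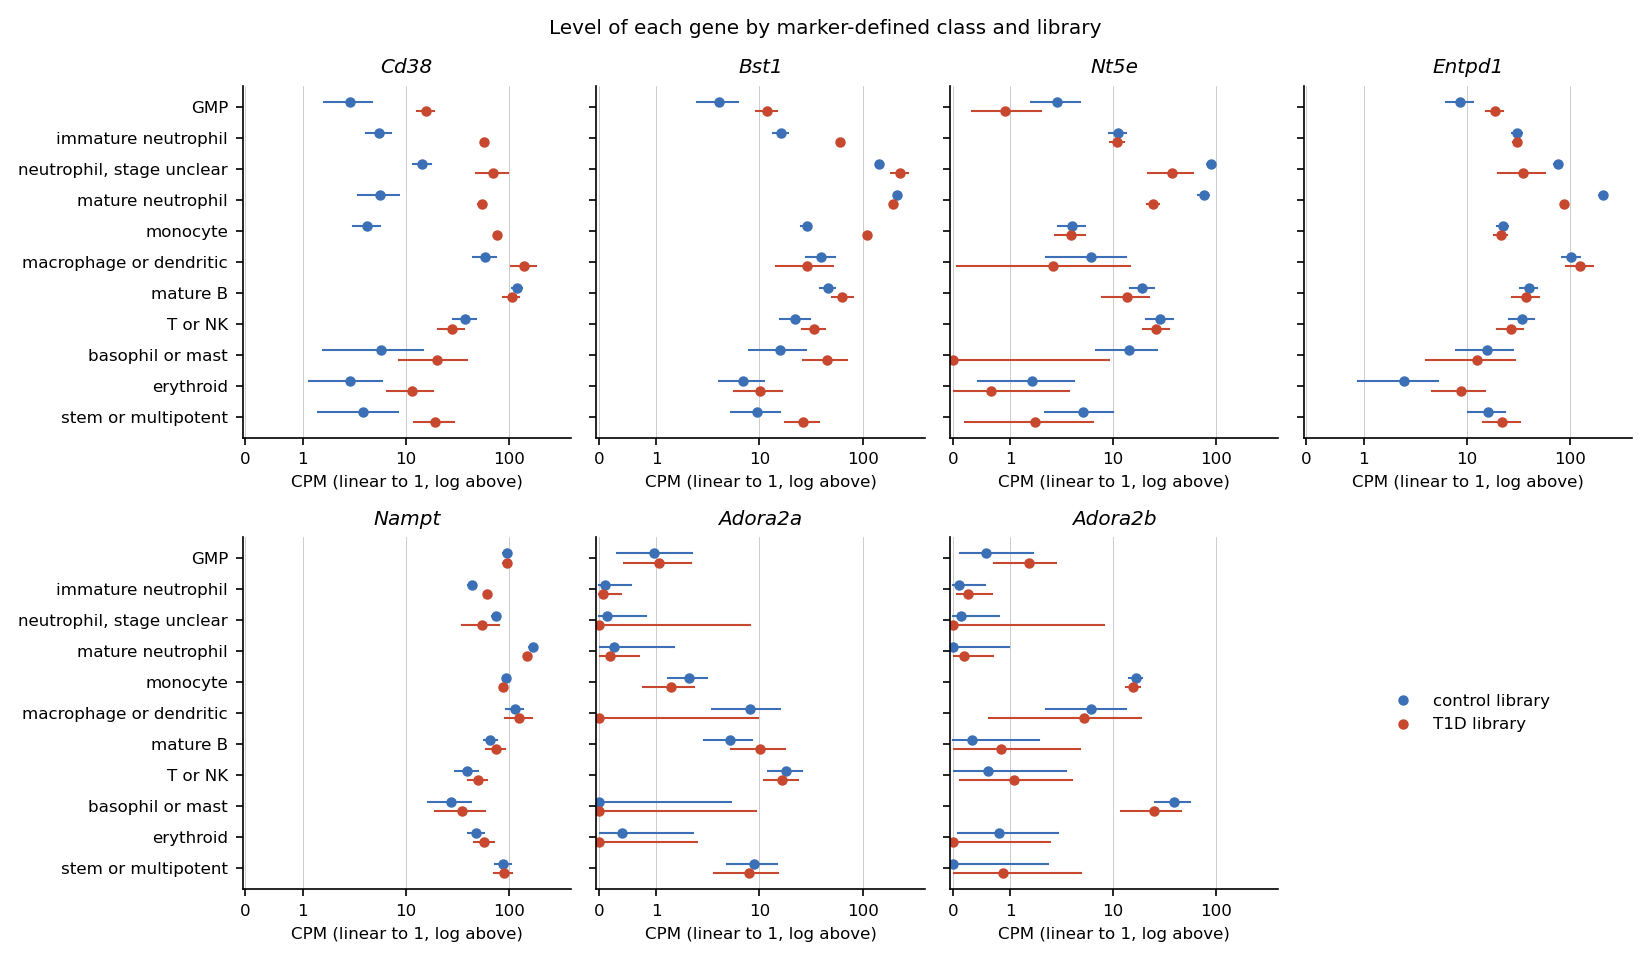
Level of the 7 genes in each class, in CPM (axis linear to 1 CPM and logarithmic above), with points for the control library (blue) and the T1D library (red) and lines for exact 95% counting intervals; GMP is granulocyte-monocyte progenitor. Cd38 in monocytes lies at 4.20 CPM in the control and 76.3 CPM in the T1D library, while in mature B cells the points lie at 120 and 106 CPM.

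The share of cells with at least 1 Cd38 count followed the levels. In mature neutrophils it was 1.35% in the control and 9.96% in the T1D library, at median totals of 2451 and 2111 counts per cell. After each cell was thinned to 1000 counts the shares were 0.599% and 4.58%, so the deeper library had the lower share on either basis. In monocytes the shares were 1.92% and 22.8%, or 0.321% and 7.10% after thinning. Erythroid cells, which served as the class that should lack the gene, had shares of 2.26% and 4.33% at deeper medians of 7355 and 4933 counts, and 0.323% and 0.722% after thinning. The unthinned control shares in mature neutrophils and monocytes did not exceed the erythroid share, but these cells were shallower. At equal depth the control share in mature neutrophils was above the erythroid one and that in monocytes was not, and no order is read from shares this low. The T1D shares exceeded the erythroid share on either basis.

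Cd38 in erythroid cells itself was higher in the T1D library, at 2.85 and 11.4 CPM (7 and 17 counts), a 3.99-fold difference (1.57 to 11.4). In stem or multipotent progenitors it was 3.82 and 19.3 CPM, a 5.07-fold difference (1.99 to 15.3). Basophil or mast cells had 5.73 and 19.9 CPM, with a ratio of 3.48 (0.933 to 15.8). Hemoglobin transcripts, a measure of free RNA in cells that do not make them, stood in mature neutrophils at 112% of their all-cell level in the control and 98.1% in the T1D library. In monocytes they stood at 11.7% and 31.9%, and in immature neutrophils at 17.4% and 41.6%. Plasma cell transcripts gave lower values, 3.75% and 7.49% in mature neutrophils. When free RNA at the hemoglobin level was subtracted, the log2 ratio of Cd38 in mature neutrophils (5 CPM added to both levels) was 0.70 instead of 2.50. Those of immature neutrophils and monocytes did not move beyond their counting error. In control mature neutrophils, however, the amount subtracted was 112% of the all-cell Cd38 level of 21.3 CPM. That exceeds the 5.58 CPM measured there and left none of it. In T1D mature neutrophils the amount subtracted was 98.1% of the all-cell level of 52.5 CPM, beside 54.7 CPM measured, and left little. Hence 0.70 cannot be read as the ratio without free RNA, and the part of free RNA in the difference was not tested. All 8 markers of mature B cells were detected in the monocytes of both libraries, with summed levels of 66.1 CPM in the control and 22.1 CPM in the T1D library, and in mature neutrophils these were 43.5 and 7.29 CPM. All 8 markers of immature neutrophils had summed levels of 11010 CPM in control and 19220 CPM in T1D monocytes, and all 8 of mature neutrophils 2953 and 5209 CPM. In immature neutrophils the mature markers summed to 3100 and 6787 CPM. The part of these markers in the Cd38 and Bst1 differences was not tested.

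Within clusters that both libraries shared, Cd38 was higher in the T1D library in 11 of 11 neutrophil, monocyte and granulocyte-monocyte progenitor clusters, each with a counting interval above 1. The 10 of these with counts in both libraries had folds from 4.84 to 14.2. The 11 clusters come from the same 2 libraries and are not replicates, and 6 of them met the size rule described below. How many other genes were higher in all 11 was not counted. The 3 shared monocyte clusters had 4.92 and 54.9 CPM in cluster 6, 7.12 and 102 CPM in cluster 17, and 4.74 and 52.7 CPM in cluster 28. In the immature neutrophil cluster 18 the 178 control cells had no Cd38 count and the 370 T1D cells had 43, which is at least 9.20-fold higher against a floor of 3 counts in the control, and the exact interval of the ratio begins at 7.17. The only mature neutrophil cluster that both shared, cluster 0, had 10.02 and 69.9 CPM in 172 and 2619 cells. Of the 8 shared clusters of other lineages, 3 had an interval above 1 and 1 below, T or NK cluster 11 with 48.2 and 21.9 CPM (0.454, 0.253 to 0.781). The other shared T or NK cluster, 24, lay in the opposite direction, with 15.05 and 33.25 CPM (2.21, 0.997 to 5.55). Over all monocyte clusters with at least 100 cells in a library, Cd38 ran from 2.35 to 7.12 CPM in the control and from 52.7 to 102 CPM in the T1D library. In immature neutrophils these ranges were 0 to 7.40 and 31.5 to 89.7 CPM, and in mature neutrophils 4.98 to 10.02 and 27.2 to 69.9 CPM. Clusters of a library are not replicates, and how many other genes had separate ranges was not counted.

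**Figure D2:**
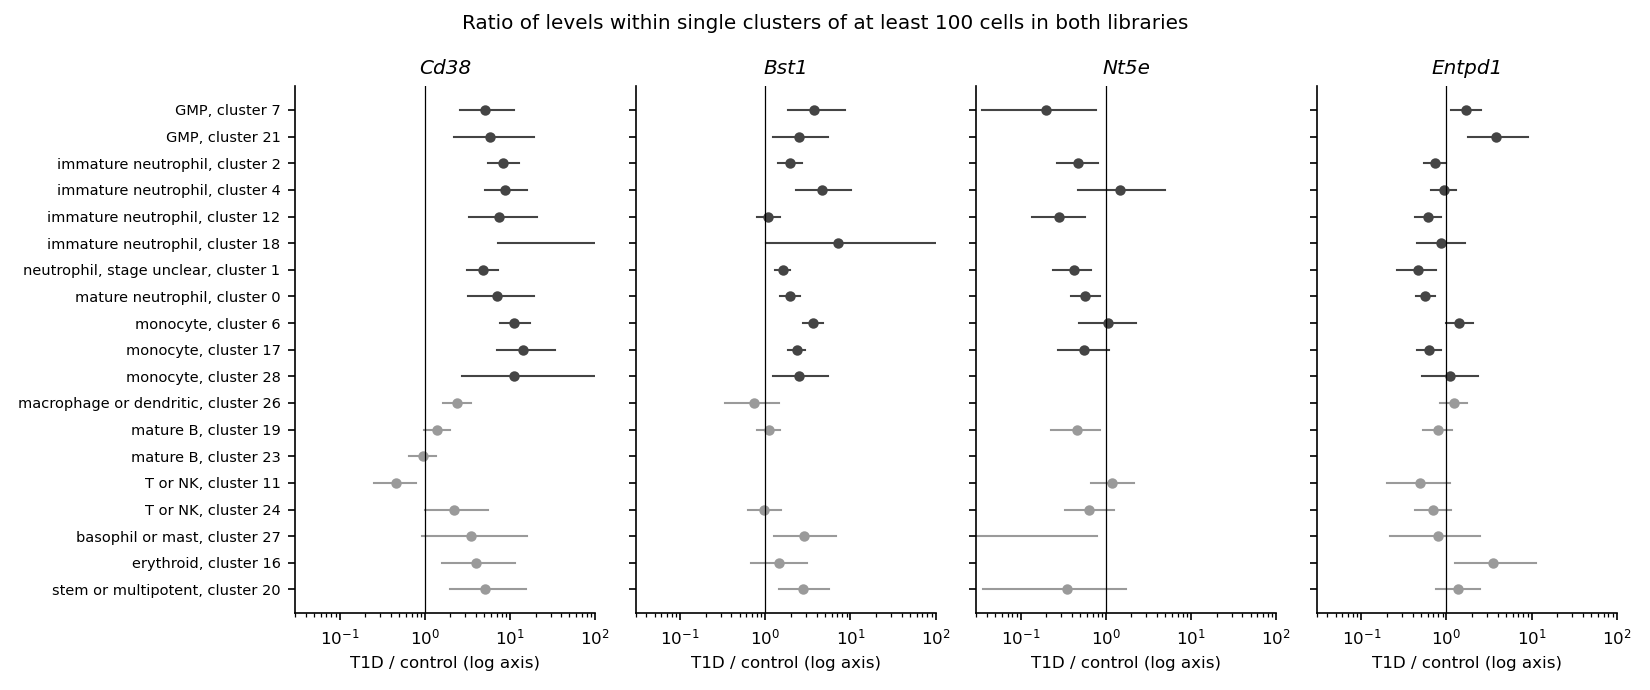
Ratio of T1D over control levels (log axis) of 4 genes within each cluster that holds at least 100 cells of both libraries, with exact 95% counting intervals drawn as lines that end at the axis limits; black marks neutrophil, monocyte and GMP clusters and grey the others, and pairs with under 10 counts in all are left out. Cd38 lies right of 1 in all 11 black clusters, and Nt5e lies left of 1 with its whole interval in 5 of those drawn (cluster 18, with 7 counts, is left out).

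The neutrophils were also divided into 5 ranges of a stage score, a division added after the data were seen. The score was the log2 ratio of the summed mature to the summed immature marker genes of each cell. Borders were set so that each range held about the same number of cells of both libraries pooled. The division held 14958 cells, of which 2663 lay within 0.25 of a border. Cd38 was 3.90 CPM in the control and 40.7 CPM in the T1D library in the least mature range, 13.99 and 73.5 CPM in the second, 12.9 and 72.1 CPM in the third, 7.84 and 60.8 CPM in the fourth and 6.06 and 25.0 CPM in the most mature. The T1D level was higher in each range, by 4.12-fold (2.38 to 7.64) in the most mature and 10.4-fold in the least mature. In both libraries the second and the third range stood highest.

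A gene was counted as different by size when the log2 ratio with 5 CPM added was at least 1 in either direction, the higher library had at least 50 CPM and the counting interval excluded 1. Over all kept cells 3.49% of the genes at 50 CPM in at least 1 library met this rule, and 1 of the 7 genes did, Cd38. In immature neutrophils 2.04% of genes met it, with Cd38 and Bst1 among them. In mature neutrophils 4.29% met it, with Cd38 (higher), Nt5e and Entpd1 (lower). The Cd38 call ended at 0.70 when free RNA was subtracted at the hemoglobin level, which left nothing of the control level and little of the T1D level. Those of Nt5e and Entpd1 ended in cluster 0. In stage-unclear neutrophils 3.02% met it, and the same 3 members did. In monocytes 2.94% met it, with Cd38 and Bst1, and in macrophage or dendritic cells 10.8% met it, with Cd38. None of the 7 met it in granulocyte-monocyte progenitors (1.15% of genes), mature B cells (8.3%), T or NK cells (4.12%), basophil or mast cells (7.59%), erythroid cells (2.5%) or stem or multipotent progenitors (2.96%), where 0 to 3 of the 7 reached 50 CPM. Since the members were selected on these contrasts, nothing is read from their counts. Scaling by TMM instead of total counts shifts all log2 ratios by 0.13 over all kept cells and by -0.29 in the stage-unclear neutrophils, and by under 0.1 in the other classes named here.

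Bst1 was higher in T1D monocytes and in every shared neutrophil cluster, while the class values of mature neutrophils lay close together. In monocytes it was 28.6 CPM in the control (320 counts) and 111 CPM in the T1D library (1120 counts), a 3.88-fold difference (3.42 to 4.40), and 12.1% and 30.7% of cells had a count. In mature neutrophils it was 215 and 197 CPM, with a ratio of 0.917 (0.845 to 0.996). In cluster 0, the only mature cluster that both shared, it was 96.9 and 187 CPM, 1.93-fold higher in the T1D library (1.48 to 2.55), which is the opposite direction. All 6 shared neutrophil clusters had a higher T1D level, 5 of them with an interval above 1. In immature neutrophils it was 16.0 and 60.8 CPM, a 3.79-fold difference (3.20 to 4.51). That last difference moved with the way immature cells were delimited, from a log2 ratio of 1.64 in the class to 0.75 in its shared clusters and 0.62 when each library was clustered alone. T1D cells of cluster 3, which held 1793 T1D and 86 control cells and was led by Olfm4 and AA467197, had 129 CPM of Bst1.

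Along the stage score Bst1 was 7.23 and 11.6 CPM in the least mature range, 48.1 and 63.5 CPM in the second, 110 and 138 CPM in the third, 227 and 200 CPM in the fourth and 223 and 213 CPM in the most mature. Both libraries thus had more Bst1 in later than in earlier stages. In the 3 shared monocyte clusters the T1D level was 2.33- to 3.61-fold higher, each with an interval above 1. In mature B cells Bst1 was 45.8 and 63.8 CPM, and in B-lineage cells of unclear stage 79.5 CPM. Erythroid cells had 6.91 and 10.02 CPM, the lowest T1D level among the compared classes, and granulocyte-monocyte progenitors had 4.01 and 11.8 CPM, the lowest control level. The transcripts of Bst1 and of Fbxl5, on opposite strands, share 98 of the 3317 exonic bases of Bst1 in the GENCODE vM21 annotation, and whether the counting used strand is not given, so reads there cannot be told apart.

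Cd38 and Bst1 lie next to each other, with Fbxl5 on one side and Prom1, beyond the barely detected Fgfbp1, on the other. Their neighbours were looked at after the values of Cd38 and Bst1 had been seen. Fbxl5, a subunit of a ubiquitin ligase that senses iron, had 132 CPM in control and 401 CPM in T1D monocytes, a 3.05-fold difference (2.88 to 3.24). In immature neutrophils it had 185 and 461 CPM (2.49-fold), and in mature neutrophils 1192 and 1625 CPM (1.36-fold). It was also higher in T1D cells where Cd38 was not, with 304 and 550 CPM in mature B and 177 and 385 CPM in cells of the T or NK class. Cpeb2 on the far side of Fbxl5 had 24.6 and 26.7 CPM in monocytes, with a ratio of 1.09 (0.916 to 1.29), and Tapt1, beyond Prom1, had 16.2 and 21.8 CPM (1.35, 1.10 to 1.65). Prom1 itself had 4.56 and 9.50 CPM in monocytes (2.09-fold higher, 1.47 to 2.99) and 86.5 and 65.0 CPM in immature neutrophils (0.751, 0.684 to 0.824).

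**Figure D3:**
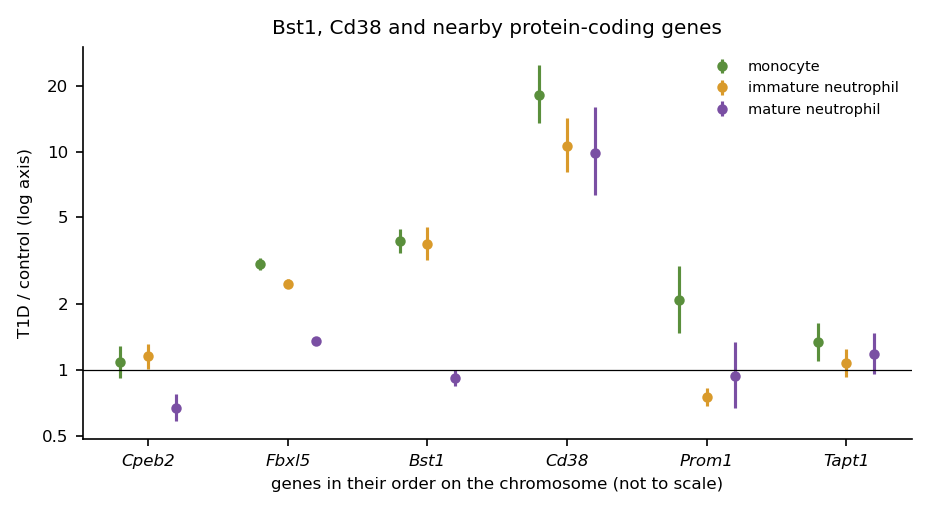
Ratio of T1D over control levels (log axis) of Cd38, Bst1 and nearby protein-coding genes in their order on the chromosome (not to scale), with exact 95% counting intervals, in monocytes (green), immature neutrophils (orange) and mature neutrophils (purple). Fbxl5, Bst1 and Cd38 lie above 1 in monocytes and immature neutrophils, Bst1 at 0.917 in mature neutrophils; genes with at most 1.47 CPM over all kept cells are not drawn.

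Nt5e was largely a neutrophil transcript in both libraries and was lower in the T1D library. Neutrophils held 77.1% of its counts in the control and 77.2% in the T1D library, and were 45.2% and 58.9% of the cells. Mature neutrophils had 75.7 CPM in the control (285 counts) and 24.4 CPM in the T1D library (251 counts), 3.10-fold lower (2.61 to 3.69). Stage-unclear neutrophils had 88.9 and 37.1 CPM, 2.40-fold lower, and Nt5e headed the list of genes that set this cluster apart although it was left out of the clustering. All neutrophils together had 48.9 and 16.8 CPM, 2.92-fold lower. In cluster 0, the only mature cluster shared by both libraries, the levels were 51.8 and 29.6 CPM, 1.75-fold lower, and there the log2 ratio with 5 CPM added was -0.72, under the size rule.

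In the class of immature neutrophils Nt5e was 11.1 CPM in the control and 10.8 CPM in the T1D library, with a ratio of 0.976 (0.761 to 1.26). Its shared clusters did not all follow that value: cluster 2 had 15.8 and 7.45 CPM and cluster 12 had 21.7 and 6.11 CPM, both with an interval below 1, while cluster 4 had 1.59 and 2.33 CPM. Cluster 3, held mostly by T1D cells, had 24.6 CPM there. Along the stage score Nt5e was 6.36 and 3.298 CPM in the least mature range, 43.0 and 10.7 CPM in the second, 71.0 and 22.0 CPM in the third, 93.8 and 31.5 CPM in the fourth and 83.6 and 17.98 CPM in the most mature. It was lower in the T1D library in all 5 ranges, by 1.93-, 4.03-, 3.24-, 2.98- and 4.65-fold. The control level was highest in the fourth range, as was the T1D level.

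**Figure D4:**
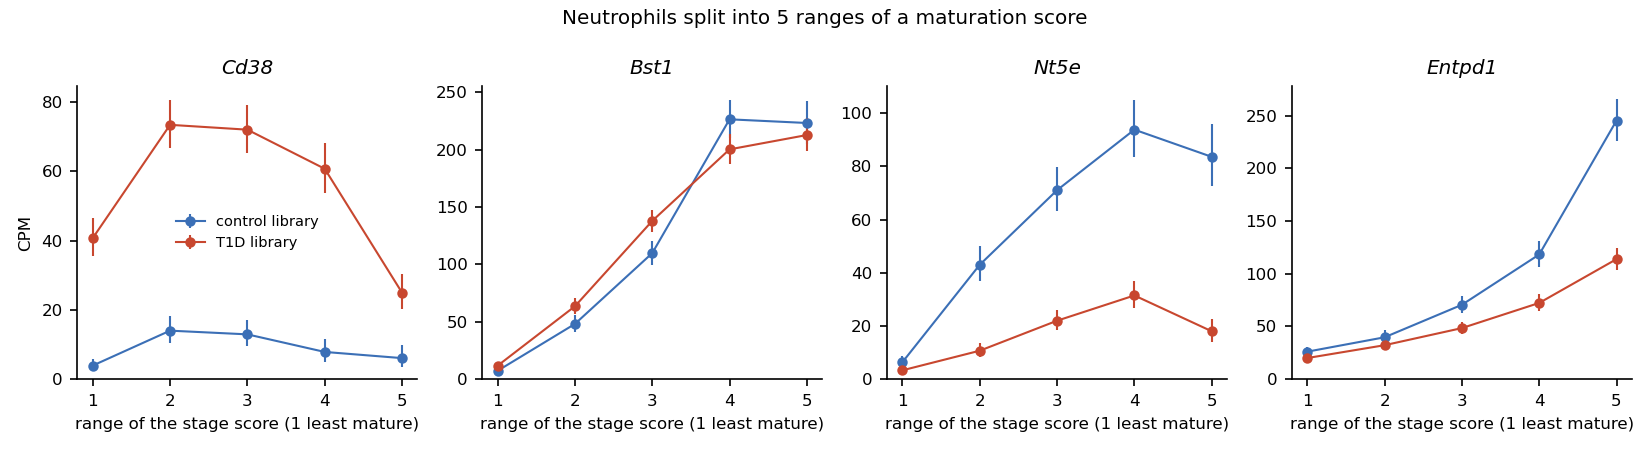
Level in CPM of 4 genes in 5 ranges of the neutrophil stage score, from least (1) to most mature (5), in the control (blue) and T1D (red) libraries, with exact 95% counting intervals. Cd38 is higher in T1D cells in every range, Nt5e is lower in every range, and Entpd1 parts most in the fifth range, at 246 and 114 CPM.

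The share of mature neutrophils with an Nt5e count was 16.3% in the control and 4.78% in the T1D library, or 7.34% and 2.37% at 1000 counts per cell. Erythroid cells had 1.29% and 0.361%, or 0.323% and 0 cells after thinning. Outside the neutrophils Nt5e was 28.6 and 26.2 CPM in T or NK, 19.1 and 13.6 CPM in mature B cells, 4.02 and 3.86 CPM in monocytes and 27.9 CPM in control B-lineage cells of unclear stage. The lower T1D level of neutrophils did not appear in T or NK cells or monocytes, whose counting intervals overlap between the libraries. It did appear in granulocyte-monocyte progenitors, at 2.86 and 0.909 CPM (15 and 6 counts; 0.317, 0.101 to 0.865), and in mature B cluster 19, at 42.2 and 19.1 CPM (0.454, 0.225 to 0.850). Whether the ratio differs between classes was not tested. Basophil or mast cells had 10 counts in the control, 14.3 CPM, and 0 counts in 129 T1D cells, at least 1.91-fold lower against a floor of 3 counts in the T1D cells, and the exact interval begins at 1.29-fold.

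Entpd1, the enzyme before Nt5e in the path from ATP to adenosine, was also lower in mature T1D neutrophils. It had 207 CPM in the control and 87.6 CPM in the T1D library, 2.36-fold lower (2.15 to 2.60), and 38.4% and 16.1% of cells had a count. In cluster 0 it was 125 and 70.5 CPM, 1.78-fold lower (1.38 to 2.27), and there the log2 ratio of -0.79 did not meet the size rule. Stage-unclear neutrophils had 75.8 and 35.0 CPM, 2.17-fold lower, and immature neutrophils 30.8 and 30.6 CPM. All 6 shared neutrophil clusters had a lower T1D level, 4 of them with an interval below 1. Along the stage score the levels were 26.0 and 19.98 CPM, 39.7 and 32.2 CPM, 70.5 and 48.4 CPM, 118 and 72.3 CPM, and 246 and 114 CPM, so the control was 1.30-, 1.23-, 1.46-, 1.64- and 2.16-fold higher. Macrophage or dendritic cells had 102 and 125 CPM and monocytes 22.3 and 21.3 CPM. Granulocyte-monocyte progenitors went the other way, with 8.59 and 18.6 CPM, a 2.17-fold higher T1D level (1.53 to 3.12), as did erythroid cells with 2.44 and 8.68 CPM (3.56-fold, 1.26 to 11.4).

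The adenosine receptors were scarce. Adora2a had 3 counts in the neutrophils of each library and Adora2b had 2 in the control and 6 in the T1D library, so a difference there was not detectable at this depth. Adora2a, the receptor known for restraining T cells, was highest among the compared classes in T or NK cells, at 18.0 and 16.4 CPM, and plasmacytoid dendritic cells had 11.1 and 19.7 CPM. Stem or multipotent progenitors had 8.91 and 7.91 CPM and mature B cells 5.13 and 10.2 CPM. Adora2b was highest in basophil or mast cells, with 38.7 and 24.9 CPM (0.645, 0.279 to 1.38), followed by monocytes with 16.6 and 15.5 CPM (0.935, 0.751 to 1.16). No interval of either gene excluded 1 within the shared clusters.

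Nampt was detected in all compared classes and met the size rule in none of them. Over all kept cells it had 78.1 and 88.9 CPM, a ratio of 1.14. Mature neutrophils had 171 and 150 CPM (0.880, 0.802 to 0.966) and immature neutrophils 43.8 and 61.8 CPM (1.41, 1.26 to 1.59). Both libraries had higher levels in the most mature stage range, 189 and 186 CPM, than in the least mature, 40.2 and 64.4 CPM. Granulocyte-monocyte progenitors had 95.9 and 95.4 CPM, monocytes 92.8 and 87.6 CPM and stem or multipotent progenitors 87.8 and 88.8 CPM. Basophil or mast cells were the lowest of the compared classes in both libraries, with 27.2 and 34.9 CPM.

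Cd38 and Nt5e were rarely found in the same neutrophil, at rates that reflect how few cells had either. Among the 4349 mature neutrophils of the T1D library 433 had a Cd38 count, 208 an Nt5e count and 29 both, against 20.7 cells from the product of the shares, a ratio of 1.40 (0.938 to 2.01). Cells with Cd38 were deeper, with a median total of 2730 against 2059 counts in the others. At 1000 counts per cell, 5 cells had both against 4.71 from the product, a ratio of 1.06 (0.345 to 2.48). Nt5e was 27.6 CPM in cells with Cd38 and 23.9 CPM in cells without. In the control library 18 mature neutrophils had Cd38, 217 had Nt5e and 4 had both, against 2.93 (1.37, 0.373 to 3.50). All 3 intervals include 1, and those of the thinned T1D and the control cells reach down to 0.345 and 0.373. Neither fewer nor more cells with both genes than the product gives can be read from them, and cells that shared a library are not replicates.

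Over all neutrophils of the T1D library 57 of 9171 cells had both Cd38 and Nt5e, against 42.3 (1.35, 1.02 to 1.75), and 11 against 8.19 after thinning (1.34, 0.670 to 2.40). Cd38 and Bst1 coincided in 209 of 2268 T1D monocytes against 159 from the product (1.31, 1.14 to 1.503). At 1000 counts per cell these were 25 against 16.4 (1.53, 0.987 to 2.25). Bst1 was 138 CPM in T1D monocytes with a Cd38 count and 101 CPM in those without. In control mature neutrophils Nt5e and Entpd1 coincided in 87 cells against 83.2 (1.05, 0.837 to 1.29).

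**Figure D5:**
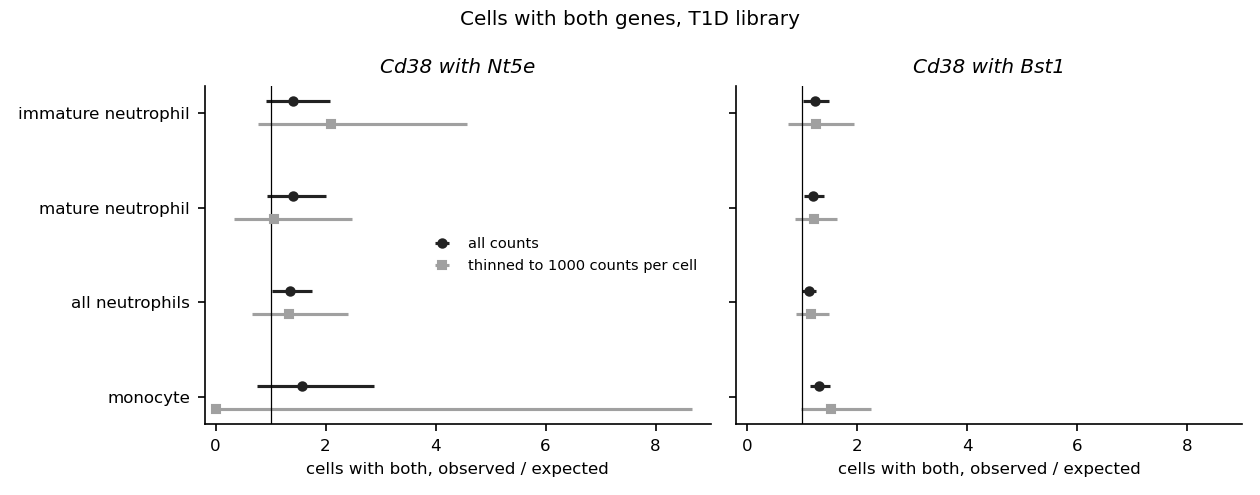
Number of T1D cells with both genes over the number given by the product of the shares, for Cd38 with Nt5e and Cd38 with Bst1 in 4 sets of cells, with exact 95% counting intervals; black uses all counts and grey uses cells thinned to 1000 counts. In mature neutrophils Cd38 with Nt5e stands at 1.40 with all counts and at 1.06 after thinning.

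Of 132 genes in 9 lists of NAD and adenosine metabolism, receptors and transport, 124 were in the tables, and few reached 50 CPM. Over all kept cells 1 list gene met the size rule, Cd38. In the neutrophil classes only Cd38, Bst1, Entpd1, Nt5e and Entpd5 did, the last, an intracellular nucleoside diphosphatase, in stage-unclear cells with 21.7 and 50.3 CPM (2.31-fold, 1.42 to 3.60). Of the 22 measured NAD synthesis genes 2 reached 50 CPM in immature neutrophils, 2 in mature neutrophils and 3 in monocytes, and none met the rule, which 2.04%, 4.29% and 2.94% of all genes met there. The 3 in monocytes were all lower in the T1D library, and their median log2 ratio was -0.48, beside -0.05 for all genes at that level. Of 21 intracellular NAD consumers 7 reached 50 CPM in monocytes, 5 with a ratio below 1 and a median of -0.33. Of the 13 genes of cyclic ADP-ribose and ADP-ribose calcium channels at most 1 reached 50 CPM in a neutrophil class and 0 in monocytes, so the rule could hardly be met. Trpm2, a channel opened by ADP-ribose, had 181 CPM in control and 135 CPM in T1D mature neutrophils (0.745, 0.679 to 0.817). Of the 4 adenosine receptors none reached 50 CPM there.

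Across 25 profiles of classes and libraries, which share libraries and cell mixes, the genes most like Cd38 by Pearson's r of log2(CPM + 5) among 5739 genes were Gpcpd1 (0.709), Irs2 (0.698), Man2a1 (0.675), Ptprj (0.661) and Lmbrd1 (0.653). Those most like Nt5e were Ddx60 (0.91), Slc7a11 (0.905), Il1f9 (0.897), G0s2 (0.89) and Ifit1bl2 (0.885). Il1f9 also led cluster 8, which held most control mature neutrophils.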

How the data were processed

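Whole-number counts per gene and barcode were deposited by the authors as 1 table for each library, with no normalization. The submitters' processing notes name bcl2fastq 2.19, featureCounts and the mouse build mm9. The sources used here do not give the aligner, the annotation, strand use, how barcodes were called cells or whether molecular identifiers were collapsed. The reference in hand is of build GRCm38, so only the RefSeq promoters carry coordinates.

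The 7 genes and the lists were chosen with earlier results of these data known. Named genes are the 7 members, list genes past the size rule in immature or mature neutrophils or over all kept cells, and the 5 genes most correlated with Cd38 or Nt5e. The stage-unclear class, the neighbouring genes, Entpd5 and Trpm2 fall outside this rule and were added after values were seen.

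Filters of 200 genes or more and of mitochondrially encoded counts up to 20% removed 77 control and 192 T1D barcodes. After scaling to 10000 counts per cell and log transformation, 30 principal components of 2855 variable genes, without members and list genes, gave a graph with 15 neighbours, with no integration of the libraries. The Leiden partition with the highest modularity of 10 starts (resolution 1, igraph 0.11.9) had 40 clusters, and its lowest adjusted Rand index with another start was 0.701. Clusters were named from 19 marker sets with at least 3 markers, by a rule that was completed after the clusters were seen. Clusters with markers of several sets, with no set reaching 3 markers or with under 20 cells were left unnamed (290 control and 742 T1D cells). Most of these T1D cells were in cluster 14 (32 control and 602 T1D cells), where no set reached 3 markers. No doublet caller was run. Leaving out cells with markers of another lineage, or the cells with the highest totals, were alternatives.

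Counts were summed per class and library. Ratios and intervals, exact at 95%, were computed with Python 3.11.15 and scipy 1.17.1, and edgeR 4.0.16 and DESeq2 1.42.0 served only for scaling factors. No test could be made with 1 library per group, and there are no p-values. The nuclear ribosomal RNA features CT010467.1 and Gm26917 held 30.3% of control and 34.0% of T1D counts. The size rule was run on simulated counts with known changes, which hold counting error only and no variation between libraries or animals. Alternatives covered scaling, the CPM added, filters, thinning, free RNA, clustering and class definition.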

Additional observations from a re-analysis of the deposited data

Results flagged for a closer look

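Some genes had counting intervals on opposite sides of 1 in a pair of classes. Whether these ratios differ was not tested, since each class has 1 library per group. Bst1 had a log2 ratio of T1D over control of 1.79 in monocytes and -0.12 in mature neutrophils. In cluster 0, the only mature neutrophil cluster shared by both libraries, it was 0.91 with an interval above 1, so the opposite sides rest on the class value. Entpd1 had 0.88 in erythroid cells and -1.2 in mature neutrophils. The erythroid value rests on 2.44 and 8.68 CPM. Nampt had 0.45 in immature and -0.18 in mature neutrophils. In cluster 0 it was 0.23 with an interval that includes 1, as did those of the 2 most mature stage ranges, and 6 of 20 alternatives for mature neutrophils lay above 0.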

How the results depend on the processing

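No direction was reversed for Cd38, Nt5e or Entpd1 in mature neutrophils, Cd38 in immature neutrophils, or Cd38 and Bst1 in monocytes under the 19 or 20 alternatives tried for each ratio. The alternative of shared clusters, all neutrophil stages together and shared barcodes left out were chosen after seeing the data, as were all those for monocytes. The cause of the moves below was not tested, apart from the CPM added, which by construction pulls ratios of low genes toward 0. With 20 CPM added the log2 ratio of Cd38 was 1.55 in mature neutrophils, 1.61 in immature neutrophils and 1.99 in monocytes, that of Nt5e in mature neutrophils -1.11 and that of Bst1 in monocytes 1.43. With 1 CPM added Cd38 had 3.18 in immature neutrophils and 3.89 in monocytes. Classes from the highest marker score of each cell gave 1.44 and 2.15 for Cd38 in mature and immature neutrophils and -1.71 for Nt5e in mature ones. Free RNA subtracted at the hemoglobin level left 0.70 for Cd38 in mature neutrophils. There the amount subtracted exceeded the control level and was close to the T1D level. In shared clusters Nt5e had -0.72.

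The difference in the share of mature neutrophils with Cd38, 8.61 percentage points, was 11.97 for cells of at least the lowest control total, 3.98 at 1000 counts per cell, 7.03 with each library clustered alone, 5.08 by marker score, 2.08 when 2 counts were needed and 9.76 in shared clusters. The difference for Nt5e, -11.5 points, was -4.97 at 1000 counts per cell, -3.12 when 2 counts were needed, -8.42 for all neutrophil stages together and -8.43 in shared clusters. Cells with both genes over the product of the shares in the T1D library, 1.40, stood at 2.35 when 2 counts were needed. That was the highest of 14 alternatives, of which the lowest gave 1.06. In the control library this ratio ran from 0 to 1.37 over 14 alternatives.

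Among other ratios, Bst1 in mature neutrophils ran from -0.5 to 0.91, Nampt there from -0.38 to 0.31, Bst1 in immature neutrophils from 0.62 to 1.86, Nt5e there from -1.14 to 0.31 and Entpd1 in mature neutrophils from -1.54 to -0.51. No replicate could be left out and no paired analysis was possible because each group has 1 library. Depth limits Cd38 in control neutrophils and monocytes and both adenosine receptors to few counts.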
